A study of Mus musculus with 10 samples.

Results

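The genes described here are 34 genes listed as markers of mammary and breast tumour epithelium, read in RNA from T cells sorted out of mouse breast tumours. A row of the deposited table belonged to them if its gene name was on a list of epithelial genes, and all 34 were found among the 17363 named genes. The list held 4 luminal keratins, 2 basal keratins, 11 surface and junction genes, 8 milk and secreted protein genes, and 9 transcription factors and hormone receptors. Of the 34 members, 33 passed the filter on low values and were tested among 14473 genes. The exception was Csn2, which had 0 reads in 7 of 10 libraries.

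The libraries were made from CD4+CD25- T cells that were sorted from digested tumours of C57BL/6 mice at 23 weeks of age. All 4 genotypes carried floxed Tgfbr2, the gene of the type II TGF-beta receptor, and PyMT, the polyomavirus middle T antigen that gives rise to mammary tumours. IL4-/-KO mice (Il4-/-ThPOKCreTgfbr2fl/flPyMT) lacked Il4 and carried ThPOKCre, a Cre recombinase driven by ThPOK, which is active in the CD4 T cell lineage. KO mice (ThPOKCreTgfbr2fl/flPyMT) carried the Cre without the Il4 deletion. IL4-/- mice (Il4-/-Tgfbr2fl/flPyMT) had the Il4 deletion without the Cre. WT mice (Tgfbr2fl/flPyMT) had neither. There were 2 replicates of each genotype, and each KO RNA had a first and a repeat library, which made 10 libraries from 8 RNAs. Whether both replicates of a genotype came from different mice is not stated in the labels. The p-values therefore measure spread between these samples only, and part of it may be technical. The promoter that drives PyMT is not given in the labels.

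The mammary duct has an inner layer of luminal epithelium, marked by the simple keratins Krt8, Krt18 and Krt19, and an outer basal layer of contractile myoepithelium, marked by Krt5 and Krt14. In pregnancy the luminal layer forms alveoli that secrete milk proteins under prolactin, which acts through its receptor Prlr, the kinase JAK2 and the transcription factor STAT5. PyMT tumours arise from the luminal layer, and T cells are not known to use keratins or caseins.

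Recovered library sizes ran between 17121030 and 33802781 reads. The WT libraries and the first KO libraries were the shallower set, and the IL4-/-KO, KO repeat and IL4-/- libraries were the deeper set. The value of 1 read was 0.644 to 1.47 normalized counts. A gene listed at 0 in a library could therefore have had up to 3 reads, or 1.93 to 4.41 normalized counts there, a bound that covers counting error only. T cell genes were high everywhere: Cd3e, of the T cell receptor complex, had 13302 to 33606 normalized counts, and Cd4 had 12165 to 40172. Il2ra, which encodes CD25, had 400.4 to 4641 normalized counts although CD25+ cells were to be sorted out. Values in KO are given throughout in the order first and repeat library of replicate 1, then first and repeat library of replicate 2. The targeted gene Tgfbr2 had 7762 and 8205 normalized counts in IL4-/-KO, 5828, 7632, 5803 and 9442 in KO, 13816 and 12544 in IL4-/-, and 7876 and 7894 in WT. These are sums over the whole gene and the deleted part is not given in the sources used here, so they check no label. Il4 had 98.7 and 39.7 normalized counts in IL4-/-KO, 426, 352, 523 and 236 in KO, 97.2 and 75.4 in IL4-/-, and 107 and 276 in WT. Fewest genes, 12459, were detected in the KO replicate 2 repeat library, against 12891 to 15899 elsewhere.

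Reads of epithelial genes were present in every library, and their share ranged more widely between libraries than that of T cell genes. The 34 members took 0.111% and 0.348% of the reads in the IL4-/-KO replicates. In KO they took 0.506% and 0.484% in the first and repeat libraries of replicate 1 and 0.672% and 0.772% in those of replicate 2. In IL4-/- the shares were 0.250% and 0.696%, and in WT they were 1.44% and 0.177%. The WT replicates were thus the highest and the second lowest of the 8 RNAs, and the other genotypes lay within the span of WT except IL4-/-KO replicate 1. The summed level of the members ranged over 12.3-fold between libraries, against 2.27-fold for 8 core T cell genes (Cd3e, Cd3d, Cd3g, Cd4, Cd2, Cd5, Cd28 and Lck). In bulk libraries such as these, fewer epithelial cells and less RNA per epithelial cell cannot be told apart. Which cells the reads of each member came from was not tested.

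**Figure D1:**
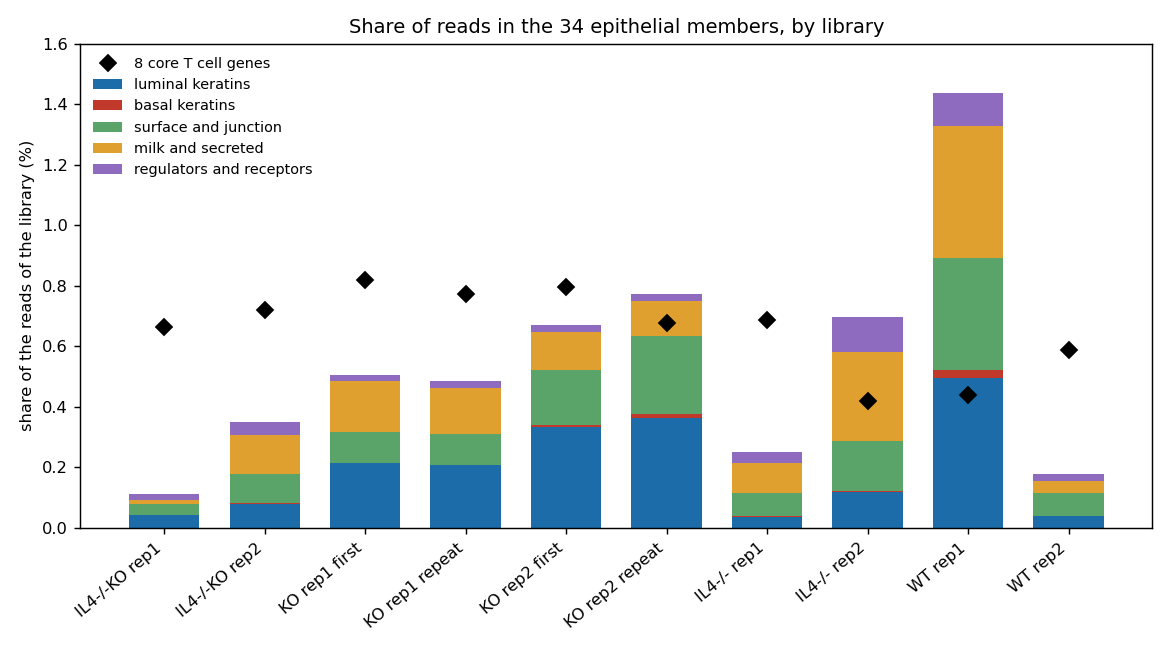
Stacked bars give the percentage of each library's reads that fell in the 34 members, by member group, and diamonds give the percentage in 8 core T cell genes, for the IL4-/-KO, KO, IL4-/- and WT libraries in that order. The bars run between 0.111% in IL4-/-KO replicate 1 and 1.44% in WT replicate 1, while the diamonds stay between 0.419% and 0.820%.

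Markers of other cells were also read. The 10 macrophage genes took 0.450% of the reads in IL4-/- replicate 2 and 0.0220% to 0.0748% elsewhere. Among them Lyz2, a lysozyme, had 28932 normalized counts in that library and at most 4934 in the others. The 7 stromal genes summed to 34.3 to 856 normalized counts, with 1 to 6 of them at 0 in each library. The 6 neutrophil genes summed to 4436 and 5173 normalized counts in both KO replicate 1 libraries, against 100.3 to 858 elsewhere. The part of these cells in the results below was not tested.

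**Figure D2:**
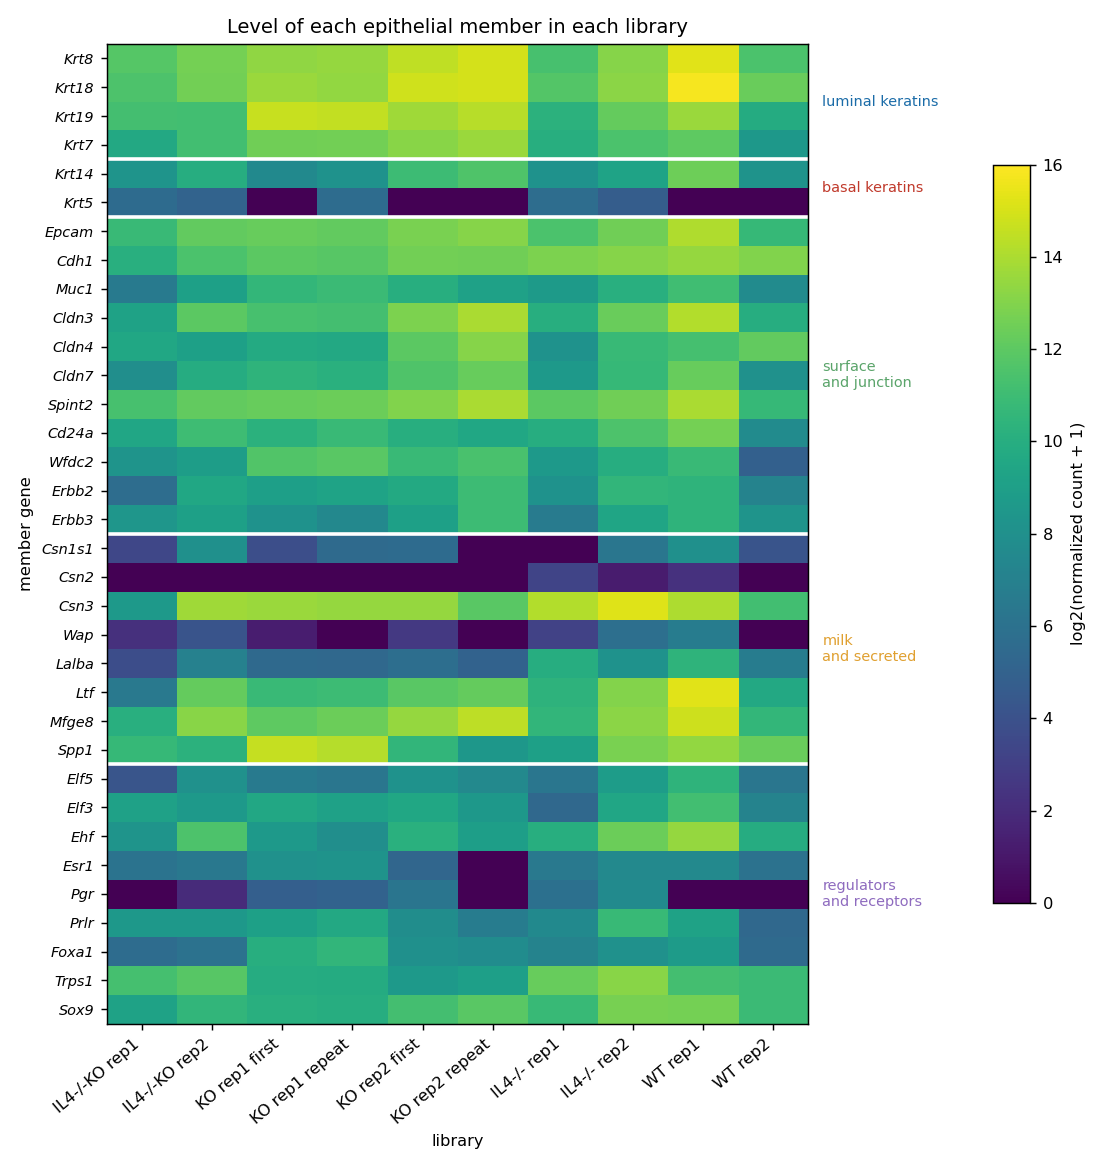
Each row is a member, each column a library, and the colour is log2(normalized count + 1). The column of WT replicate 1 is the brightest for 17 of 34 members, and IL4-/-KO replicate 1 is the darkest for 12.

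Among the members, 28 were above 0 in every library and 20 averaged at least 1000 normalized counts over the 8 replicates. Per kilobase of merged exons, the order of mean levels began with Krt18 at 10851 normalized counts per kb, followed by Krt8 at 6564, Cldn3 at 4429, Krt19 at 4391, Spp1 at 3766, Csn3 at 3283 and Epcam at 2655. The T cell genes Cd3e and Cd4 averaged 5171 and 6423 on this scale. Each of these members ranged over at least 9.97-fold between libraries, so neighbours in this order do not differ beyond their spread. Merged exons join all annotated transcripts of a gene, with 6926 bases for Csn2 and 4080 for Cd3e. They can be longer than the transcript that was read, so levels per kb and their order depend on the annotation. At the low end were Krt5 at 10.3 normalized counts per kb, Esr1 at 8.84, Pgr at 4.77 and Csn2 at 0.255.

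The luminal keratins form the intermediate filaments of luminal cells, in pairs of an acidic and a basic type. The basic type genes Krt8 (mm10, chr15:101996698-102004482) and Krt7 (chr15:101411043-101430313) lie on the same chromosome as the acidic Krt18 (chr15:102028180-102032027), and the acidic Krt19 lies at chr11:100140810-100148665. Krt8 had 3479 and 6575 normalized counts in IL4-/-KO, 10425, 11549, 23134 and 32473 in KO, 2581 and 8736 in IL4-/-, and 39788 and 2873 in WT. Its filament partner Krt18 had 2981 and 6236 normalized counts in IL4-/-KO, 12363, 10997, 28945 and 31927 in KO, 3346 and 9335 in IL4-/-, and 55536 and 5196 in WT. For both genes WT replicate 1 was the highest library and WT replicate 2 was among the lowest 3, while every KO library lay above both IL4-/-KO libraries. Krt19 had 2334 and 2249 normalized counts in IL4-/-KO, 25486, 23406, 13679 and 19659 in KO, 1243 and 4821 in IL4-/-, and 12493 and 904 in WT. Krt7 had 796 and 2270.2 normalized counts in IL4-/-KO, 5898, 6109.6, 9168 and 12461 in KO, 1051 and 2777 in IL4-/-, and 4224 and 371 in WT. Both of these were higher in every KO library than in any library of the other genotypes, a pattern whose share among all genes was not counted. Krt19 reached its maximum in KO replicate 1 where Krt8 and Krt18 were lower than in KO replicate 2.

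The basal keratins did not move together. Krt14 (chr11:100203162-100207548), the acidic keratin of myoepithelium, had 308 and 1012 normalized counts in IL4-/-KO, 191, 281, 1971 and 3087 in KO, 289 and 631 in IL4-/-, and 5675 and 302 in WT. WT replicate 1 and both libraries of KO replicate 2 were high and the libraries of KO replicate 1 were the lowest, so KO and WT overlapped. Krt5 (chr15:101707070-101712898), its basic partner, had 47.5 and 32.5 normalized counts in IL4-/-KO, 0, 49.3, 0 and 0 in KO, 51.0 and 25.8 in IL4-/-, and 0 and 0 in WT. It was above 0 in both replicates of both genotypes without Il4, and at 0 in 5 of the 6 other libraries. The exception was the repeat library of KO replicate 1, whose first library from the same RNA had none. Krt5 was at 0 in every library of the shallower set. In the deeper set only the repeat library of KO replicate 2 was at 0. Depth set and loss of Il4 cannot be told apart for this gene. Per kilobase of exons, the lowest replicate of Krt14, at 134.3 normalized counts per kb, was above the highest of Krt5, at 23.2.

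The surface and junction members are adhesion, tight junction and receptor genes of epithelial membranes, with the secreted Wfdc2 beside them. A promoter window is shown first, because most of the group shares a short motif that the choice of genes did not use. In the RefSeq windows (GRCm38.p6) of 250 bases before and 50 bases from the start, which were at hand for 26 of the 34 members, CAGGTG on either strand was found in 7 of the 8 surface and junction members with a window. The same motif stood in 20.2% of all 32851 windows. Some members have several windows, and a member was counted if any of its windows held the motif. The motif was not particular to this group. It was also in windows of Krt5, Krt7, Krt8, Krt18, Elf3, Elf5, Pgr, Foxa1, Prlr, Spp1 and Ltf. Outside the group, the windows of Krt14, Esr1, Csn1s1, Csn2, Mfge8, Wap and Lalba held none. CAGGTG is the E-box that the repressors Snail and Zeb bind in epithelial genes. The window of Epcam (chr17:87635729-87636028, plus strand) is shown because it holds the motif in both orientations, marked in capitals, 187 and 19 bases before the start.
Epcam: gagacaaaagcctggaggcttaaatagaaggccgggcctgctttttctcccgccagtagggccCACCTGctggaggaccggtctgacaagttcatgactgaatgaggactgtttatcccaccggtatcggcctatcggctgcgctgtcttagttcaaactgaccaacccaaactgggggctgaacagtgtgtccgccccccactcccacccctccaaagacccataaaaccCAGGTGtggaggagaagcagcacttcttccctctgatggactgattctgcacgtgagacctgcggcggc
A match to these letters is a description of the window, not a binding site.

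Epcam, an adhesion molecule of epithelial surfaces, had 1844 and 4494 normalized counts in IL4-/-KO, 4889.9, 4497, 7093 and 8805 in KO, 2829 and 5979.7 in IL4-/-, and 17119 and 1716 in WT. Spint2, an inhibitor of membrane serine proteases, had 2634 and 4572 normalized counts in IL4-/-KO, 4959, 5366, 7892 and 15727 in KO, 3941 and 5864 in IL4-/-, and 16009 and 1707 in WT. Cldn3, a tight junction claudin, had 601 and 4034 normalized counts in IL4-/-KO, 2609.6, 2358, 7445 and 15748 in KO, 1041 and 5254 in IL4-/-, and 18586 and 1017 in WT. All of these peaked in WT replicate 1, and within WT the second replicate was lower by about an order of magnitude. Cldn7, another claudin, had 244 and 955 normalized counts in IL4-/-KO, 1344, 1156, 3098 and 4887 in KO, 381 and 1668 in IL4-/-, and 5048 and 267 in WT. It too was highest in WT replicate 1, with the repeat library of KO replicate 2 next. Cldn4, whose gene neighbours Cldn3, had 731 and 534 normalized counts in IL4-/-KO, 862, 802, 4000.1 and 8921 in KO, 288 and 1759 in IL4-/-, and 2441 and 4612 in WT. Unlike Cldn3, it was higher in WT replicate 2 than in WT replicate 1. Cdh1, the E-cadherin of adherens junctions, had 1109.9 and 2853 normalized counts in IL4-/-KO, 4062, 3641, 6307 and 5950.1 in KO, 7449.7 and 8747 in IL4-/-, and 11251 and 8116 in WT. Every IL4-/-KO and KO library lay below every IL4-/- and WT library. Cd24a, a glycoprotein used to sort mammary epithelium, had 699 and 2076 normalized counts in IL4-/-KO, 1178, 1813, 1043 and 736 in KO, 1003 and 2897 in IL4-/-, and 6532 and 206 in WT. Wfdc2, a secreted protease inhibitor of epithelia, had 305 and 469 normalized counts in IL4-/-KO, 3268, 3851, 1863 and 2699 in KO, 382 and 1001 in IL4-/-, and 1852 and 29.0 in WT. Cd24a was highest in WT replicate 1 and lowest in WT replicate 2, and Wfdc2 was higher in every KO library than in WT. Of the remaining members of the group, Muc1, a membrane mucin, had 95.8 to 2173 normalized counts, the receptor tyrosine kinase Erbb2 had 51.2 to 2021 and its partner Erbb3 had 98.0 to 1961.

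The milk and secreted members differed widely in level, also within the caseins. Csn1s1, Csn2 and Csn3 encode alpha-s1-, beta- and kappa-casein and lie in the casein cluster of chromosome 5. The STAT5 element TTCNNNGAA, searched on both strands, was found in the windows of Csn1s1 and Csn2, which were 2 of the 7 milk and secreted members with a window, against 8.30% of all windows. The element was not particular to this group, since windows of Cldn7, Esr1 and Prlr held it too. Csn3 had no window in the table. The windows of Csn1s1 (chr5:87665958-87666257, plus strand) and Csn2 (chr5:87699376-87699675, minus strand) are shown because they hold the element of prolactin signalling, in capitals, 100 and 93 bases before the start, while Csn1s1 and Csn2 averaged 13.6 and 0.255 normalized counts per kb, against 3283 for Csn3.
Csn1s1: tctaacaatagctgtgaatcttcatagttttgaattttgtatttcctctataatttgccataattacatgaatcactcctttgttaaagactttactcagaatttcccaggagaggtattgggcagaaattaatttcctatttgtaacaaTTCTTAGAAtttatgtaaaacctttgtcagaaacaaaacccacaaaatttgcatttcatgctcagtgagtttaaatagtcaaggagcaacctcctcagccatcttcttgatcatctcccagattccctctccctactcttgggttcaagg
Csn2: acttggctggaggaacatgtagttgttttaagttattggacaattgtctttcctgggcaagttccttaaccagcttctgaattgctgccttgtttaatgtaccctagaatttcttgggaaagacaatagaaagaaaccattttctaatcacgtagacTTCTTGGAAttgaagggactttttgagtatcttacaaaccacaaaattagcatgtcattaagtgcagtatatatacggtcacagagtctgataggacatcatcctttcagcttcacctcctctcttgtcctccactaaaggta
Both matches are of letters only and say nothing of whether STAT5 was bound.

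Csn3 (chr5:87925579-87932665) had 385 and 13567 normalized counts in IL4-/-KO, 12108, 11439.6, 11395 and 3884 in KO, 18329.8 and 38070.2 in IL4-/-, and 16991 and 2284 in WT. It was higher in both IL4-/- replicates than in any library of the other genotypes. Csn1s1 (chr5:87666208-87682578) had 9.65 and 265 normalized counts in IL4-/-KO, 13.2, 45.9, 47.3 and 0 in KO, 0 and 77.3 in IL4-/-, and 259.5 and 17.2 in WT. Csn2 (chr5:87692624-87699630) had 8.91 and 1.29 normalized counts in IL4-/- and 3.95 in WT replicate 1, and 0 in the other 7 libraries. Per kilobase of exons, the highest replicate of Csn2, at 1.29 normalized counts per kb, was below the lowest of Csn3, at 92.6. Wap, the whey acidic protein, had 3.71 and 16.6 normalized counts in IL4-/-KO, 1.47, 0, 5.25 and 0 in KO, 8.10 and 56.0 in IL4-/-, and 103 and 0 in WT. Lalba, alpha-lactalbumin, which turns a galactosyltransferase into lactose synthase, had 12.6 and 132 normalized counts in IL4-/-KO, 44.1, 41.6, 55.2 and 31.2 in KO, 1006 and 278 in IL4-/-, and 1384 and 103 in WT. Every KO library of Lalba lay below both WT libraries, and both IL4-/-KO libraries lay below both IL4-/- libraries.

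Ltf, the iron-binding lactoferrin, had 86.9 and 4712 normalized counts in IL4-/-KO, 1833, 2045, 3804 and 4809 in KO, 1313 and 8545 in IL4-/-, and 40465 and 811 in WT. Mfge8, a milk fat globule protein that binds phosphatidylserine and is made by macrophages too, had 1075 and 9291 normalized counts in IL4-/-KO, 4221, 5375, 11324 and 22044 in KO, 1476 and 9718 in IL4-/-, and 27940.4 and 1572 in WT. Both were highest in WT replicate 1 and lowest in IL4-/-KO replicate 1, and Ltf spanned 466-fold between those libraries. Spp1, osteopontin, which macrophages and T cells also make, had 1720.2 and 1226 normalized counts in IL4-/-KO, 24642, 19285, 1484 and 354 in KO, 539 and 7180.4 in IL4-/-, and 10800.2 and 5301 in WT. It was highest in KO replicate 1 and lowest in the repeat library of KO replicate 2, so the replicates of a single genotype covered its whole range. An annotated transcript on the same strand, Gm42793, overlaps 18.8% of its exon bases, so some of its reads may belong there.

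Of the regulators, Trps1, a GATA-type transcriptional repressor used as a breast marker, had 2458 and 3628 normalized counts in IL4-/-KO, 951, 918, 393 and 526 in KO, 4952 and 9050.4 in IL4-/-, and 2343 and 1884 in WT. It was higher in every IL4-/- library than in WT, higher in every WT library than in KO, and higher in every IL4-/-KO library than in KO. Ehf, an ETS factor of luminal progenitors, had 309.6 and 2932 normalized counts in IL4-/-KO, 388, 234, 1158 and 496 in KO, 1039 and 5435 in IL4-/-, and 11303 and 961 in WT. Sox9, a factor of luminal progenitors, had 598 and 1503 normalized counts in IL4-/-KO, 1110.0, 1004, 2390.1 and 3774 in KO, 1791 and 6752 in IL4-/-, and 6584 and 1949 in WT. Ehf and Sox9 were high in WT replicate 1 and IL4-/- replicate 2. Pgr, the progesterone receptor, had 0 and 2.89 normalized counts in IL4-/-KO, 27.9, 32.3, 72.2 and 0 in KO, 59.1 and 198 in IL4-/-, and 0 and 0 in WT. It was at 0 in both WT libraries, in IL4-/-KO replicate 1 and in the repeat library of KO replicate 2, whose first library had the highest value in KO. Foxa1, a pioneer factor for the oestrogen receptor, had 49.7 and 64.3 normalized counts in IL4-/-KO, 1063, 1459.9, 259 and 216 in KO, 139 and 269 in IL4-/-, and 440.0 and 46.2 in WT. It was highest in KO replicate 1 and lower in both IL4-/-KO replicates than in any KO or IL4-/- library. The other regulators were Esr1, the oestrogen receptor, at 0 to 293 normalized counts, Prlr at 42.2 to 1733, the alveolar ETS factor Elf5 at 17.8 to 1332 and the epithelial ETS factor Elf3 at 40.5 to 2326.

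The members did not behave as a fixed mixture. A ratio to Krt8 in the same RNA shows which members kept its proportion. These ratios are of normalized counts, not per length, so only their variation between libraries is read. The ratio of Krt18 to Krt8 was 0.857 to 1.81 over the 10 libraries. Its log2 ratio to Krt8 had an SD of 0.34 over the 8 replicates, and the SDs were 0.45 for Cldn7, 0.58 for Epcam, 0.62 for Spint2, 0.64 for Cldn3 and 0.70 for Mfge8. At the other end the SD was 2.05 for Csn3, whose ratio to Krt8 was 0.111 in IL4-/-KO replicate 1 and 7.10 in IL4-/- replicate 1. It was 2.04 for Spp1, 2.39 for Trps1 and 2.52 for Lalba. The ratio of Trps1 to Krt8 was 1.92 and 1.04 in the IL4-/- libraries and at most 0.0912 in any KO library. In WT it was 0.0589 in replicate 1, within the KO range, and 0.656 in replicate 2. That of Krt19 was 2.44 and 2.03 in both KO replicate 1 libraries, and elsewhere it did not exceed 0.671.

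**Figure D3:**
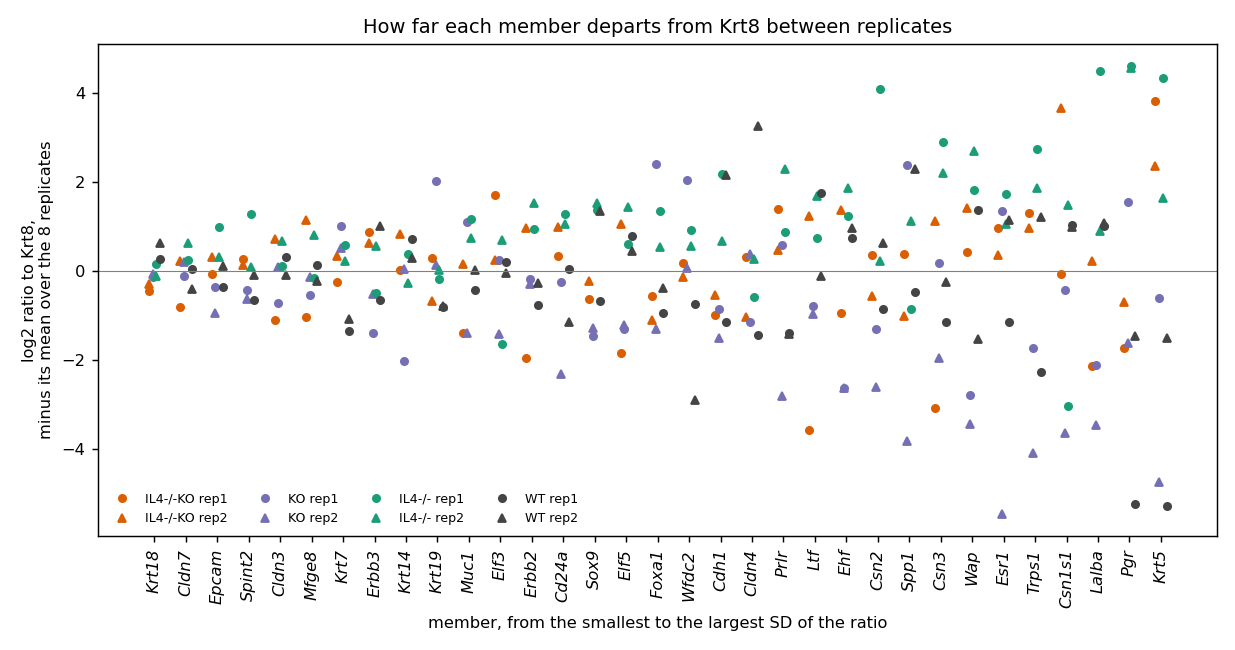
For each member, ordered by the SD of its ratio, points give the log2 ratio to Krt8 in each of the 8 replicates minus its mean, with KO libraries of an RNA averaged and triangles for the second replicate. The spread widens between Krt18, with an SD of 0.34, and members with many zeros such as Pgr and Krt5, whose SDs were 3.39 and 3.69.

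Across the 8 replicates, the member levels were compared with Krt8, with Lyz2 and with Cd3e by exact permutation over pairings, two-sided, with Benjamini-Hochberg adjustment over 14472 genes for each of these 3 genes. No member passed for any of them, and no gene of the table did (0% of genes called for each). At an unadjusted exact permutation p under 0.05, 16 of 32 members had a positive Pearson r with Krt8, against 9.01% of all genes, and 0 had a negative r, against 13% of all genes. For Lyz2 and for Cd3e, 0 of 33 members reached that level in either direction, against 2.21% and 3.06% of all genes with a positive and a negative r for Lyz2 and 4.9% and 5.18% for Cd3e. The r with Krt8 was above 0 for 28 of 32 members, against 51.9% of all genes, with a median of 0.70 for the members and 0.04 for all genes. Spearman tests gave no adjusted call for the members with any of the 3 genes.

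The Pearson r with Krt8 was above 0.9 for 6 members, against 1.13% of all genes. It was 0.97 for Krt18 (Spearman rho 0.93, exact permutation p = 0.000198 and 0.00223, adjusted p = 0.0882 and 0.130, n = 8) and 0.97 for Cldn7 (rho 0.88, exact permutation p = 0.00062 and 0.00724, adjusted p = 0.0882 and 0.130). It was 0.94 for Epcam (rho 0.90), 0.94 for Cldn3 (rho 0.83), 0.93 for Spint2 (rho 0.90) and 0.92 for Mfge8 (rho 0.86), with exact permutation p of 0.00062 to 0.00171 for these r and adjusted p of 0.0882 to 0.0920. Without WT replicate 1 and KO replicate 2, the RNAs farthest from the median of Krt8, r lay between 0.76 and 0.92 for these 6 members. Within the 6 deeper libraries it lay between 0.89 and 0.99, and the shallower set holds too few libraries for a value. Krt14 had r = 0.85 over all 8 replicates but 0.31 without those RNAs, so its relation rests on them. Krt19 and Krt7 each had r = 0.86 over all 8 replicates, and 0.88 and 0.91 without those RNAs. Some weaker values also changed little without those RNAs, at 0.78 and 0.77 for Elf3 and 0.76 and 0.79 for Wfdc2, while others moved. The r was 0.31 for Spp1 and 0.68 without them, 0.36 and -0.01 for Cdh1, 0.39 and 0.50 for Csn3, and 0.44 and 0.20 for Ehf. It was -0.44 for Trps1 and -0.10 without them, and -0.58 and 0.04 for Krt5.

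**Figure D4:**
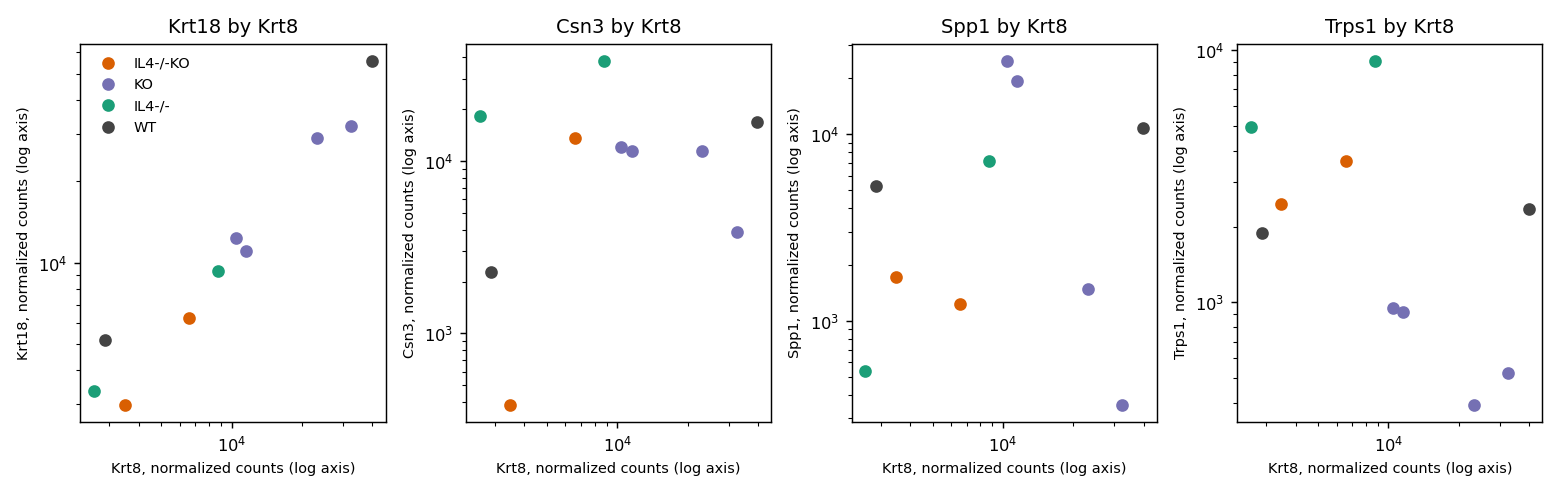
Each panel plots a member against Krt8 in the 10 libraries, both in normalized counts on log axes, with colours for IL4-/-KO, KO, IL4-/- and WT. Krt18 lies along a line, while Csn3, Spp1 and Trps1 vary widely at a given Krt8 level, with both IL4-/- libraries highest for Trps1.

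The members differed widely between replicates of a genotype. Between the WT replicates, 30 of 33 tested members were higher in replicate 1, with a median difference of 3.51 on the log2 scale. Between the IL4-/- replicates 31 of 33 members were lower in replicate 1, with a median of -1.76. Between the IL4-/-KO replicates 27 of 33 were lower in replicate 1, with a median of -1.36. Between the KO replicates 18 of 33 were lower in replicate 1, with a median of -0.67. The members' median absolute difference was 1.36 in IL4-/-KO, 1.33 in KO, 1.85 in IL4-/- and 3.51 in WT. Over all genes tested it was 0.47 in IL4-/-KO, 0.73 in KO, 0.55 in IL4-/- and 0.84 in WT. Repeat libraries of a KO RNA were closer, within 1 on the log2 scale for 31 of 34 members in replicate 1 and 21 of 34 in replicate 2. The core T cell genes had a median of -0.40 between the WT replicates, where 7 of 8 were lower in replicate 1.

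**Figure D5:**
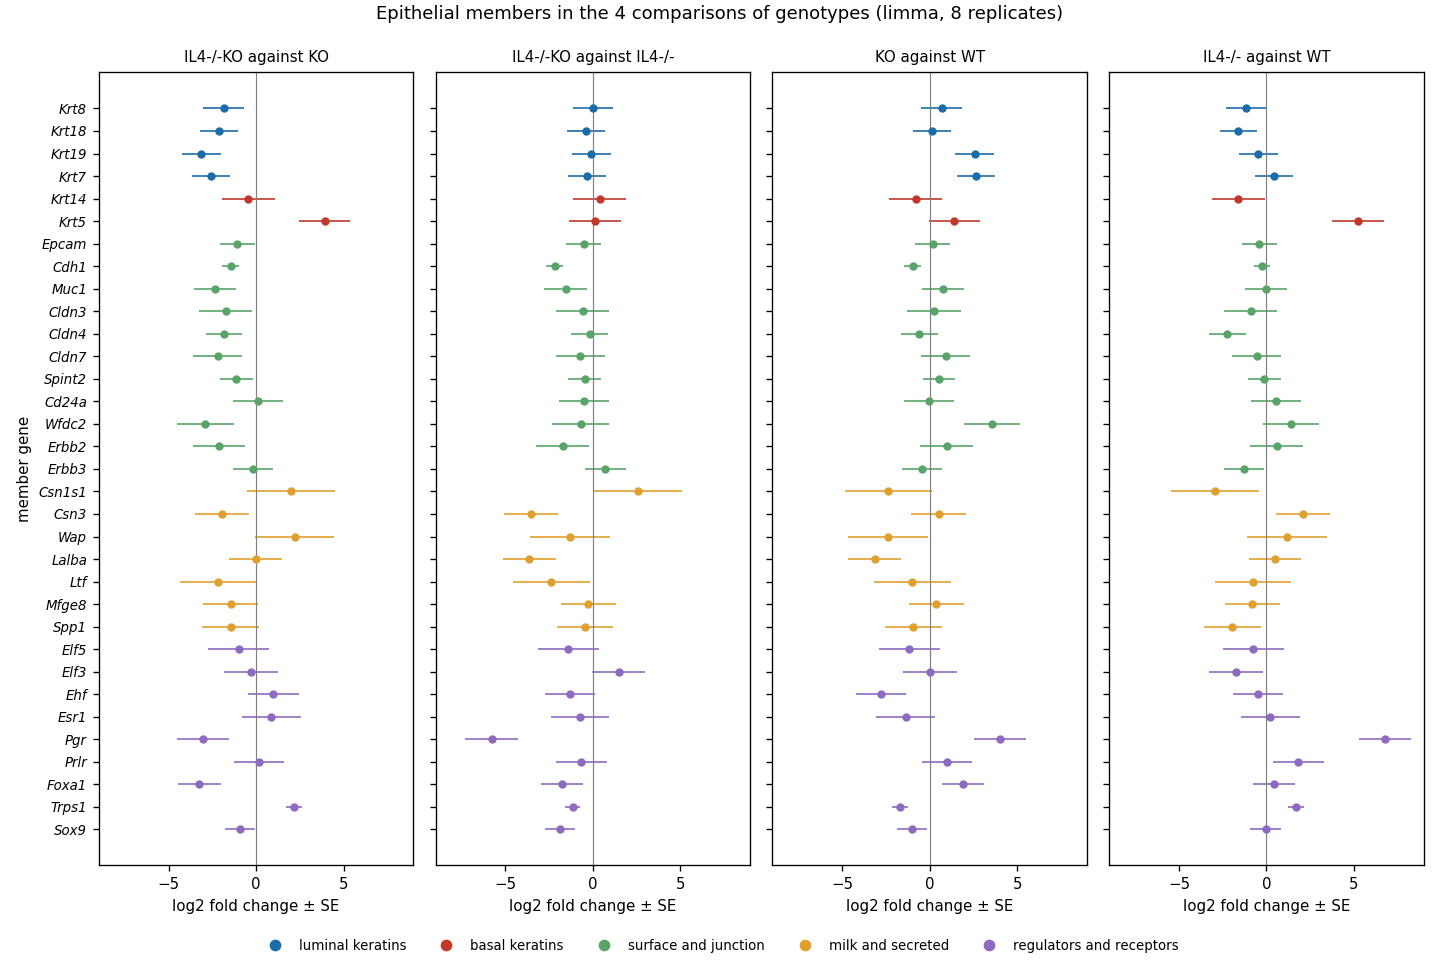
Points give the log2 fold change of each tested member and bars its standard error, from limma on log2(normalized count + 1) in 8 replicates, in 4 panels for IL4-/-KO against KO, IL4-/-KO against IL4-/-, KO against WT and IL4-/- against WT. No member passed an adjusted p of 0.05 in any panel, and the narrowest bars belong to Trps1 and Cdh1.

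The comparison of KO with WT asks what deletion of Tgfbr2 by ThPOKCre does with Il4 intact. Of 33 members 18 had a log2 fold change above 0, against 41.8% of all genes, and 15 below 0, against 57.8%. All 4 luminal keratins were above 0, and their median log2 fold change was 1.64, beside 0.25 for the surface and junction group, -0.99 for the milk and secreted group and -1.01 for the regulators, against -0.20 over all genes tested. None of the 33 tested members was called by limma at an adjusted p under 0.05, where 0.00691% of all genes were called (1 gene, Mmp9, a matrix metalloproteinase). At an unadjusted p under 0.05 there were 3 members, against 13.1% of all genes. Krt7 and Pgr were higher, where 4.42% of genes were, and Trps1 was lower, where 8.69% were. Krt19, Krt7 and Wfdc2 were higher in KO and Cdh1, Lalba and Trps1 lower without overlap of libraries, which is 3 of 33 in each direction against 10% and 12.5% of all genes. The log2 fold change of Trps1 was -1.69 ± 0.46 (SE; limma adjusted p = 0.308) and that of Krt7 was 2.68 ± 1.09 (limma adjusted p = 0.366). Pgr had a fitted value of 4.03 ± 1.51 (limma adjusted p = 0.345), which rests on zeros, since both WT libraries and the repeat library of KO replicate 2 were at 0 and the libraries overlapped.

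In that comparison edgeR called 0 members and 0% of genes, and DESeq2 called 1 member, Lalba, against 4.03% of genes. With KO from its first libraries only, both sides were of the shallower set, and the member counts were the same, 0 and 3. The spread in that fit still came from all genotypes, with IL4-/-KO and IL4-/- of the deeper set among them. Without WT replicate 1, 10 members reached an unadjusted p under 0.05, and the count was 5 without WT replicate 2 or without IL4-/-KO replicate 1 and 2 without KO replicate 2 or either IL4-/- replicate. The luminal keratin median was 3.51 without WT replicate 1 and -0.26 without WT replicate 2. Core T cell genes were all 8 on the higher side in KO against WT (median 0.74), as were all 3 tested neutrophil genes (median 3.18), and their part in the members' values was not tested.

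The comparison of IL4-/-KO with IL4-/- asks the same of Tgfbr2 deletion without Il4. Here 27 of 33 members were on the lower side in IL4-/-KO, against 52.2% of all genes, and 6 on the higher side, against 47.6%, with medians of -0.22 for the luminal keratins, -0.59 for the surface and junction group, -1.32 for the milk and secreted group and -1.32 for the regulators, against -0.03 over all genes. By limma 0 of 33 members were called, as was 0% of all genes. At an unadjusted p under 0.05 there were 4 members, all lower, namely Cdh1, Lalba, Pgr and Trps1, against 3.19% of all genes in either direction, 1.97% lower and 1.22% higher. Without overlap of libraries 8 members were lower, against 16.2% of all genes, namely those 4, Csn3, Esr1, Foxa1 and Sox9, and 0 were higher, against 16.8%. Cdh1 had a log2 fold change of -2.18 ± 0.48 (limma adjusted p = 1), Trps1 of -1.16 ± 0.46 (limma adjusted p = 1) and Pgr a fitted value of -5.79 ± 1.51 (limma adjusted p = 1), with 0 and 2.89 normalized counts in IL4-/-KO against 59.1 and 198 in IL4-/-.

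All 4 of these libraries belong to the deeper set. For this pair edgeR called 0 members and 0% of genes, and DESeq2 called 1 member, Cdh1, against 0.352% of genes. The unadjusted count was 2 without IL4-/- replicate 2 or without IL4-/-KO replicate 1, and 8 without IL4-/-KO replicate 2. Without IL4-/- replicate 2 the luminal keratin median was 0.62 and the surface and junction median 0.03, and without IL4-/-KO replicate 1 they were 0.28 and 0.13. All 10 macrophage genes were on the lower side in IL4-/-KO, with a median of -1.44, and took 0.0748% and 0.0371% of the reads in IL4-/-KO against 0.0542% and 0.450% in IL4-/-. Their part in the members' values was not tested.

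The comparison of IL4-/-KO with KO asks what loss of Il4 does once Tgfbr2 is deleted, and its median over all 33 members, -1.45, was the farthest from 0 of the 4 genotype comparisons. Of 33 members 25 were on the lower side in IL4-/-KO, against 47.6% of all genes, and 8 on the higher side, against 51.8%. All 4 luminal keratins were on the lower side in IL4-/-KO, with a median of -2.35, beside -1.73 for the surface and junction group, -1.45 for the milk and secreted group and -0.29 for the regulators, against 0.05 over all genes. By limma 0 of 33 members and 0% of genes were called. At an unadjusted p under 0.05 there were 6 members, against 12.5% of all genes. Krt19, Krt7, Cdh1 and Foxa1 were lower, where 2.45% of genes were, and Krt5 and Trps1 were higher, where 10.1% were. Without overlap of libraries 12 members were lower, against 12.4% of all genes, among them all 4 luminal keratins, Epcam and Spint2. Only Trps1 was higher without overlap, against 16.2% of all genes. Its log2 fold change was 2.19 ± 0.46 (limma adjusted p = 0.256), that of Cdh1 was -1.45 ± 0.48 (limma adjusted p = 0.318) and that of Krt19 was -3.13 ± 1.12 (limma adjusted p = 0.332). These errors, like those of the other comparisons, rest on the spread of all genotypes together. The log2 SD of Krt19 was 0.04 in IL4-/-KO and 0.41 in KO, but 1.38 in IL4-/- and 2.68 in WT. That of Cdh1 was 0.96 in IL4-/-KO and 0.47 in KO, against 0.16 in IL4-/- and 0.33 in WT.

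For IL4-/-KO with KO, edgeR called 0 members and 0% of genes, and DESeq2 called 3 members, Krt19, Foxa1 and Trps1, against 2.88% of genes. With KO from its repeat libraries only, both sides were of the deeper set, while the spread still came from all genotypes, the shallower WT among them. In that fit limma called 0 members and 5 reached an unadjusted p under 0.05. That unadjusted count was 11 without either WT replicate, 3 without KO replicate 2 and 1 without IL4-/-KO replicate 1. Without IL4-/-KO replicate 1 the milk and secreted median was 0.71. The core T cell genes had a median of -0.33 and the macrophage genes of 0.46 in this comparison. The 3 tested neutrophil genes had a median of -3.93, with 2 of them on the lower side, and their part in the members' values was not tested.

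The comparison of IL4-/- with WT asks what loss of Il4 does with Tgfbr2 intact. Of 33 members 20 were on the lower side in IL4-/-, against 49.5% of all genes, and 13 on the higher side, against 50.3%. The medians were -0.81 for the luminal keratins, -0.24 for the surface and junction group, -0.77 for the milk and secreted group and 0.22 for the regulators, against 0.01 over all genes. By limma 0 of 33 members and 0% of genes were called. At an unadjusted p under 0.05 there were 3 members, all higher, Krt5, Pgr and Trps1, against 3.88% of all genes in either direction, 2.54% higher and 1.35% lower. Those genes and Csn3 were higher without overlap of libraries, which is 4 of 33 against 14.7% of all genes, and Cldn4 was lower, against 14.6%. Trps1 had a log2 fold change of 1.67 ± 0.46 (limma adjusted p = 1). Pgr and Krt5 were at 0 in both WT libraries and were at least 32.4-fold and at least 9.69-fold higher in IL4-/-, taking 3 reads per WT library as the floor, with fitted values of 6.77 ± 1.51 and 5.22 ± 1.48 (limma adjusted p = 1 for both).

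Depth and genotype cannot be told apart here, since both WT libraries are of the shallower set and both IL4-/- libraries of the deeper set. For this pair edgeR called 0 members and 0% of genes, and DESeq2 called 1, Pgr, against 0.227% of genes. The unadjusted count was 8 without WT replicate 1 and 10 without WT replicate 2, and without WT replicate 1 the medians of the luminal keratins, the surface and junction group and the milk and secreted group were 1.08, 1.49 and 2.05. All 10 macrophage genes were on the higher side in IL4-/-, with a median of 2.15, and their part in the members' values was not tested.

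The interaction asks whether Tgfbr2 deletion acts differently with and without Il4, as the log2 fold change of IL4-/-KO against IL4-/- minus that of KO against WT. By limma 0 of 33 members and 0% of genes were called, and 1 member, Pgr, had an unadjusted p under 0.05, against 3.77% of all genes, 1.46% on the negative side and 2.31% on the positive side. The difference was below 0 for 23 of 33 members, against 45% of all genes, and above 0 for 10, against 55%. The fitted difference of Pgr was -9.82 ± 2.13 (limma adjusted p = 0.967), and it rests on the zeros named above. Foxa1 followed at -3.67 ± 1.72 and Krt7 at -3.02 ± 1.54 (limma adjusted p = 0.967 for both). The unadjusted count was 10 without WT replicate 1, 4 without IL4-/-KO replicate 2 and 2 without KO replicate 2 or IL4-/- replicate 2. For the interaction edgeR called 0 members and 0% of genes, and DESeq2 called 1, Pgr, against 0.242% of genes. The luminal keratin median was -1.68, against 0.12 over all genes, and it was -3.57 without WT replicate 1 and 0.21 without WT replicate 2.

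The 4 genotype comparisons share samples, so their values are not independent of each other: KO and IL4-/- are both set against WT, and IL4-/-KO is set against both KO and IL4-/-. Trps1 had log2 fold changes of 2.19 for IL4-/-KO against KO, -1.16 for IL4-/-KO against IL4-/-, -1.69 for KO against WT and 1.67 for IL4-/- against WT. In each of these its libraries did not overlap between the genotypes. Non-overlap in the direction of Trps1 held for 16.2%, 16.2%, 12.5% and 14.7% of all genes in these comparisons, in the same order. The share of all genes without overlap in every one of them was not counted.

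A wider list of 47 mammary genes, beside the members, gave 43 tested genes, of which 0 passed limma's adjusted threshold in any comparison. It held 20 further junction and epithelial genes, 9 genes of luminal cells, 10 of myoepithelium and 8 of milk. At an unadjusted p under 0.05, Cited1 and Areg were among the genes of the list that were higher in KO than in WT, against 4.42% of all genes in that direction, and among those lower in IL4-/-KO than in KO, against 2.45%. At that level Krt15 was the only gene of the list higher in IL4-/-KO than in KO, against 10.1% of all genes. Xdh was the only one higher in IL4-/-KO than in IL4-/-, against 1.22%. None of the list reached that level in IL4-/- against WT, against 3.88% of all genes. Areg, amphiregulin, an epidermal growth factor receptor ligand of the oestrogen response, had 1324 and 352 normalized counts in IL4-/-KO, 2737, 2679, 2247 and 2009 in KO, 301 and 501 in IL4-/-, and 703 and 232 in WT. Cited1, a coregulator of luminal cells, had 50.5 and 7.94 normalized counts in IL4-/-KO, 1966, 1555, 387 and 722 in KO, 73.7 and 38.0 in IL4-/-, and 128 and 23.8 in WT. Like Krt19 and Krt7, both were higher in every KO library than in any library of the other genotypes. The share of all genes with that pattern was not counted. Which cells the RNA of Areg and Cited1 came from was not tested. Lcn2, lipocalin 2, of luminal progenitors and neutrophils, had the highest mean of this list, 7419 normalized counts per kb, with 868 and 22001 normalized counts in IL4-/-KO, 19734, 24555, 21206 and 28516 in KO, 8011 and 50879.8 in IL4-/-, and 25223 and 1685 in WT. Of the 10 myoepithelial genes, Krt17, Acta2 and Tagln were above 0 in every library, at 83.9 to 5245, 6.79 to 1228 and 21.9 to 604 normalized counts. The other myoepithelial genes were at 0 in 3 to 9 libraries and had at most 297 normalized counts, with the contractile gene Myh11 at 0 in 8 and the oxytocin receptor Oxtr in 9. Of the 8 milk genes, Xdh, which encodes xanthine dehydrogenase of the milk fat globule, had 1141 to 6023 normalized counts and Muc15 had 0.742 to 669. Btn1a1, butyrophilin, had 0 to 2065 and Cel had 0 to 138. Glycam1 and Olah were at 0 in 8 and 9 libraries, and the caseins Csn1s2a and Csn1s2b were at 0 in 8 and 5 and did not exceed 4.41 normalized counts.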

How the data were processed

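The deposited table held normalized gene counts for 10 libraries of sorted T cell RNA, a signal that the authors made by dividing read counts by 1 size factor per library. SMART-Seq v4 cDNA and KAPA Hyper Prep libraries were used, per the labels' protocols. bcl2fastq 2.18.0, STAR, DESeq2 and the mm10 build are named, per the submitters' processing notes. The read counter, annotation and strand setting are not given in the sources used here. Whole reads were recovered for 100% of values, within 0.001 reads. Of 17370 rows, 7 without a gene name, which held 0.0029% to 0.0205% of the reads, were left out.

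The 2 libraries of each KO RNA were averaged on the log2 scale. limma 3.58.1 with a mean-variance trend was run in R 4.3.3 on log2(normalized count + 1) of 8 replicates, with 4 genotypes sharing 1 spread. Genes needed at least 10 normalized counts in at least 2 replicates, and p-values, two-sided, were adjusted by Benjamini-Hochberg over 14473 genes at a threshold of 0.05. Fold changes on this scale understate the change of low genes. Alternatives were edgeR 4.0.16 (quasi-likelihood) and DESeq2 1.42.0 on the recovered reads, other pseudocounts, TMM scaling, no filter, first or repeat KO libraries, leave-one-out refits and a block on replicate number. On recovered reads edgeR called 0 genes in every comparison. The fits were tested on simulated data. Correlations used exact permutation, adjusted over all genes tested. Python 3.11.15, numpy 2.4.6, pandas 2.3.3 and matplotlib 3.10.9 were used.

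The members and lists were chosen with earlier results of these data known. Fold changes with errors are given for members past the threshold or, with none, the 3 of smallest p in each comparison. Values in every library are given for members averaging at least 1000 normalized counts, all keratins and all milk proteins. Genes named beyond that, for example by non-overlap of libraries, were chosen after their values were seen. Shares of all genes without overlap were counted between the genotypes of a comparison only, not for patterns over more genotypes. No median is given over the 2 basal keratins. The values of 1 gene of the wider mammary list are not reported here. Reads without molecular identifiers are not independent molecules, so floors cover counting error only. Promoters are from RefSeq on GRCm38.p6, and gene positions and exon lengths from GENCODE on the same build as mm10.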

Additional observations from a re-analysis of the deposited data

How the results depend on the processing

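The count of members called by limma was 0 in all 5 comparisons under every alternative run on the log scale and by edgeR, while DESeq2 called 1 in KO against WT, 1 in IL4-/-KO against IL4-/-, 3 in IL4-/-KO against KO, 1 in IL4-/- against WT and 1 in the interaction, and the cause was not tested. Leaving out single replicates moved group medians most. In KO against WT they ranged between -0.26 and 3.51 for luminal keratins, -1.20 and 2.35 for surface and junction genes, -3.81 and 0.99 for milk and secreted genes and -1.89 and 0.89 for regulators. In IL4-/- against WT the ranges were -2.71 to 1.08 for luminal keratins, -1.78 to 1.49 for surface and junction genes and -2.46 to 2.05 for milk and secreted genes. In IL4-/-KO against IL4-/- they were -1.06 to 0.62 for luminal keratins, -1.49 to 0.13 for surface and junction genes, -2.65 to 0.00 for milk and secreted genes and -2.25 to -0.19 for regulators. In IL4-/-KO against KO the range was -1.66 to 0.71 for milk and secreted genes, and in the interaction it was -3.57 to 0.21 for luminal keratins and -2.93 to 0.47 for surface and junction genes. In IL4-/-KO against KO the luminal keratin median stayed between -2.88 and -1.71 and the surface and junction median between -2.13 and -0.70 over these refits. The 1 gene called in KO against WT was lost in each of them. Where a genotype was left with 1 sample, that sample is assumed to vary like the other genotypes. Same-numbered replicates did not pair: the correlations of their deviations lay between -0.36 and 0.24. With a replicate block 0 members were called in all 5 comparisons, and 2, 2, 5, 4 and 1 reached an unadjusted p under 0.05 in KO against WT, IL4-/-KO against IL4-/-, IL4-/-KO against KO, IL4-/- against WT and the interaction. Folds of Krt5 and Pgr against WT, at 0, are bounds set by the floor of 3 reads, and 2 replicates a genotype limit the precision of every value.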
